A study of Mus musculus with 6 samples.

Results

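Skeletal muscle fibre and myogenic genes were followed through 6 libraries of injured mouse femoral artery. They are 41 genes named by symbol: 14 of fast fibres, 6 of slow fibres, 2 embryonic or neonatal myosins, 7 sarcomere genes shared by fibre types, 3 of calcium release, 4 of fibre energy supply and 5 myogenic factors. Of these, 40 had a row in a table of 18476 genes. Myf5 had none, so its expression is not analysed here. They were named by their known roles and not by a threshold on these values, though with earlier results of these data known.

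All mice were wild-type C57BL/6, and every artery had been injured with a wire 3 days before RNA was taken. Saline was applied around the vessel in 1 group of 3 libraries and vasostatin-2, a peptide cut from chromogranin A, in the other, and all 6 libraries carry the label of 1 batch. The 3 libraries of a group are given as biological replicates. Their cell type label is vascular smooth muscle, while RNA was taken from arteries as a whole, so that of all cells in the dissected vessel was read. Values for a group are given in the order of replicates 1, 2 and 3. Library totals ran from 19333730 to 20105995 estimated counts.

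Skeletal muscle fibres contract by sliding myosin along actin within sarcomeres. Troponin and tropomyosin gate this movement, and calcium released from the sarcoplasmic reticulum opens the gate. Fast and slow fibres use different genes for the same parts, such as Myh4 against Myh7 for the myosin heavy chain. A healthy artery wall contracts with smooth muscle genes such as Acta2 and Myh11, and the femoral artery runs between limb muscles. Damaged muscle rebuilds from Pax7-positive satellite cells, which pass through Myod1 and Myog as they fuse, and new fibres briefly carry the embryonic and neonatal myosins Myh3 and Myh8.

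The 250 bases before the start of 4 genes are printed because these genes span the roles: Acta1 (skeletal actin), Ckm (muscle creatine kinase), Myh4 (the fastest myosin) and Myog (a myogenic factor). They come from RefSeq on GRCm38.p6, each 5′ to 3′ on its gene's strand, at chr8:123894776-123895025 (minus), chr7:19410844-19411093 (plus), chr11:67237562-67237811 (plus) and chr1:134289754-134290003 (plus). Capitals mark CAGCTG (an E-box that Myod1 and its relatives can bind), the MEF2 site and the CArG box (bound by serum response factor). The MEF2 site was taken as YTAWWWWTAR and the CArG box as CCWWWWWWGG. Here Y is C or T, W is A or T and R is A or G.
Acta1: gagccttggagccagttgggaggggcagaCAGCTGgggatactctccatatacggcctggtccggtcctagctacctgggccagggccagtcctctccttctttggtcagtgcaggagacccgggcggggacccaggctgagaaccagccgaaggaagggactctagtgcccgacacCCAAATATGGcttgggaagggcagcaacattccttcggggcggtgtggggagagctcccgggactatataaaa
Ckm: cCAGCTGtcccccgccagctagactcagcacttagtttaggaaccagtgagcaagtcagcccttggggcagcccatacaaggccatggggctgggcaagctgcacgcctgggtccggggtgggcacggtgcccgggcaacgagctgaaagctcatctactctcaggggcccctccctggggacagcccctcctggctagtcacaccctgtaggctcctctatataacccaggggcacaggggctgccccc
Myh4: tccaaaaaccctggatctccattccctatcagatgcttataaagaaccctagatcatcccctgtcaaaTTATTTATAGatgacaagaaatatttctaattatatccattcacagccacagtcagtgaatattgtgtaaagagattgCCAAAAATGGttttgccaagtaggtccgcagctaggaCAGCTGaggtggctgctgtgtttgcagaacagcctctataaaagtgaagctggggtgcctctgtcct
Myog: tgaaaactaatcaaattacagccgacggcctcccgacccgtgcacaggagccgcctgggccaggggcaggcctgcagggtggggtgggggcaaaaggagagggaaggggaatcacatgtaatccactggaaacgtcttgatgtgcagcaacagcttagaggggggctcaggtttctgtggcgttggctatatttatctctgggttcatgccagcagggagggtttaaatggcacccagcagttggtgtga
The Myh4 window held all 3 motifs, with CAGCTG beginning 67, the CArG box 104 and the MEF2 site 182 bases before the start. Acta1 held CAGCTG and a CArG box, the latter 73 bases before the start, and Ckm held CAGCTG at its far end. Myog held no match to these patterns, though its ctatatttat misses the MEF2 pattern at the last base only. Other E-boxes were not searched for. Each motif reads the same on both strands, so 1 scan covered both, and no matches overlapped in these windows. Among the 31 named genes with an entry, Myf5 included, 13 had CAGCTG in at least 1 window. The MEF2 site was in 6 and the CArG box in 2. By window, 15, 6 and 2 of their 36 held them. Of 32851 RefSeq windows of the same length, 13%, 2.92% and 1.47% did. These are matches of letters and show no binding.

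One library stood apart. The summed level of the 40 genes, in TPM (counts corrected for gene length and library depth), was 254, 232 and 206 with saline and 173, 201 and 2001 with vasostatin-2. Hence vasostatin-2 replicate 3 held 9.74 times the median of the other 5 libraries, and 0.2% of its TPM against 0.0173% to 0.0254%. The other 2 vasostatin-2 libraries were under every saline library on this sum, at 173 and 201 against 206 to 254. Each of the 40 genes was highest in vasostatin-2 replicate 3, 36 of them at over 2 times every other library and 25 at over 5 times. Among the 14557 genes tested below, 13.8% were highest in that library and 0.46%, or 67 genes, exceeded every other library 2-fold. Of those 67, 29 were among the 40 genes here and 14 were other adult fibre genes.

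**Figure D1:**
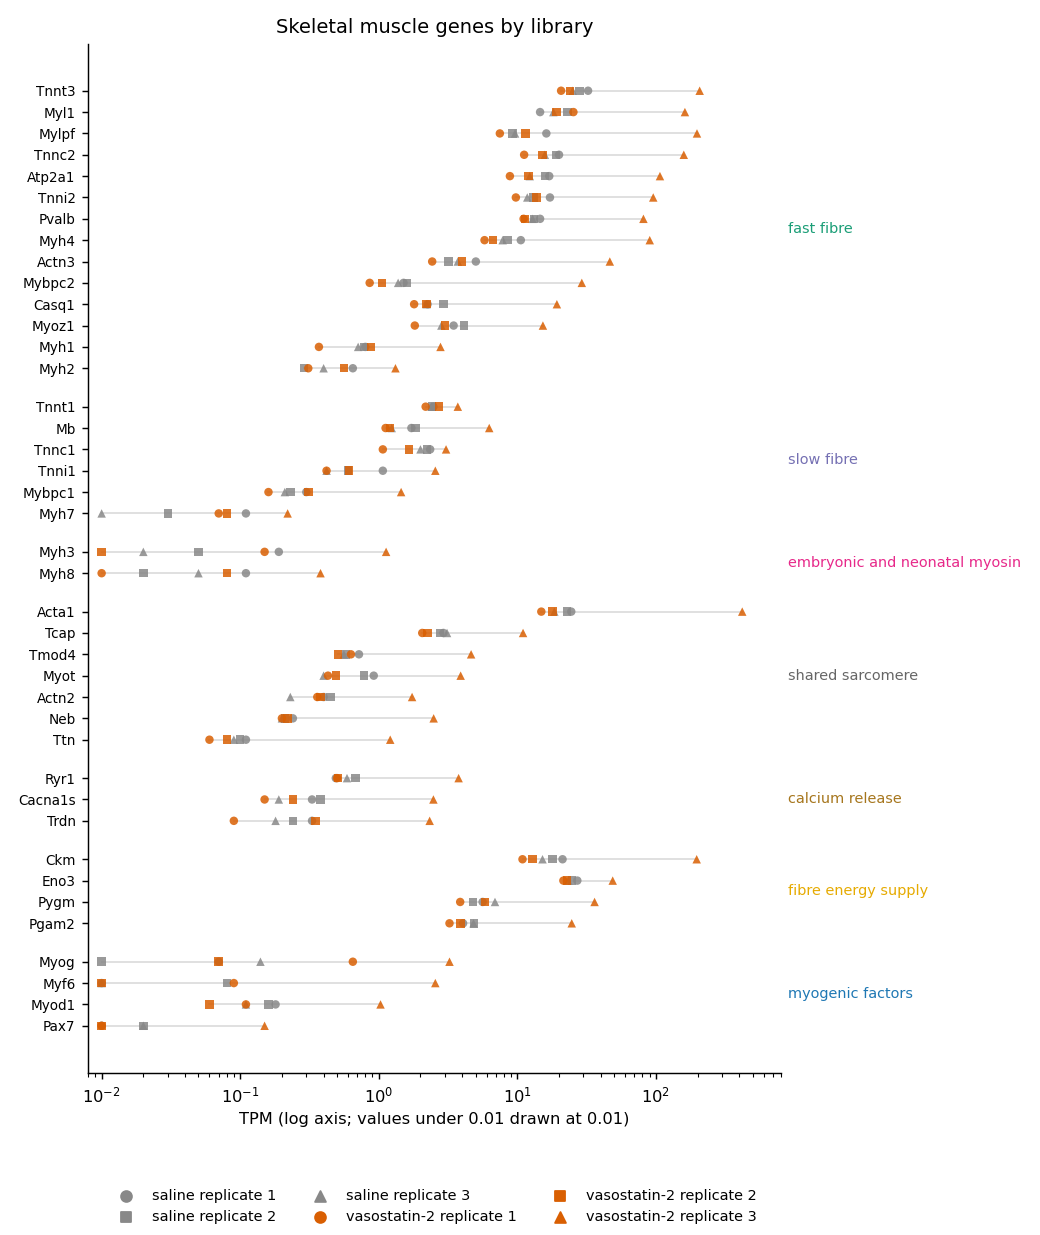
TPM of each of the 40 genes in each library, on a log axis, grouped by role; grey symbols are saline and orange symbols vasostatin-2 libraries. The orange triangle, vasostatin-2 replicate 3, lies at the right end of every line.

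The 14 fast fibre genes carried most of this RNA. Their summed TPM was 156, 143 and 125 with saline and 108, 126 and 1215 with vasostatin-2. Tnnt3 (fast troponin T, which ties troponin to the thin filament; chr7:142498771-142516213) had the highest mean TPM of the 14, with 32.4, 28.2 and 25.1 against 20.7, 24 and 207. Myl1 (an essential myosin light chain; chr1:66924295-66947932) had 14.6, 23 and 18.2 TPM with saline and 25.4, 19.2 and 162 with vasostatin-2. Both genes thus had 2 vasostatin-2 libraries near the saline values and 1 far above them.

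Mylpf (the fast regulatory light chain; chr7:127208848-127214288) had 16.2, 9.21 and 9.63 TPM with saline and 7.48, 11.5 and 198 with vasostatin-2. Myh4 (chr11:67237812-67260447) had 10.6, 8.47 and 7.84 TPM against 5.8, 6.65 and 90.3. The saline replicate 1 value was the highest of the 5 lower libraries for both. Over the 14 genes, the TPM of vasostatin-2 replicate 3 was 3.3 to 21.2 times the median of the other 5. Myh2, a fast myosin, had the lowest ratio and Mybpc2, fast myosin-binding protein C, the highest. Between these lay the calcium pump Atp2a1 at 8.72 times, the calcium store protein Casq1 at 8.73 times, the calcium buffer Pvalb at 6.32 times and the Z-disc actinin Actn3 at 12.5 times. Tnni2 and Tnnc2, the remaining fast troponins, stood at 7.32 and 10.1 times.

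The 6 slow fibre genes had a smaller excess in the same library. Their summed TPM was 8.03, 7.34 and 6.28 with saline and 5.02, 6.59 and 17.3 with vasostatin-2, or 2.62 times the median of the other 5 in vasostatin-2 replicate 3. Tnnt1 (slow troponin T; chr7:4504569-4515975) had 2.48, 2.42 and 2.41 TPM with saline and 2.18, 2.73 and 3.72 with vasostatin-2. Tnnc1 (troponin C of slow and heart muscle; chr14:31208312-31211729) had 2.35, 2.22 and 2 TPM against 1.07, 1.65 and 3.06. Their highest value was only 1.36 and 1.3 times that of the next library.

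Mb (myoglobin, the oxygen store of oxidative fibres; chr15:77014093-77050668) had 1.72, 1.84 and 1.24 TPM with saline and 1.12, 1.21 and 6.27 with vasostatin-2. Mybpc1, slow myosin-binding protein C, reached 6.3 times the median of the other 5, the most in this group. Tnni1 and Myh7 were too sparse to test, with 25 and 13.1 estimated counts in vasostatin-2 replicate 3 and at most 11 and 6.01 elsewhere.

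**Figure D2:**
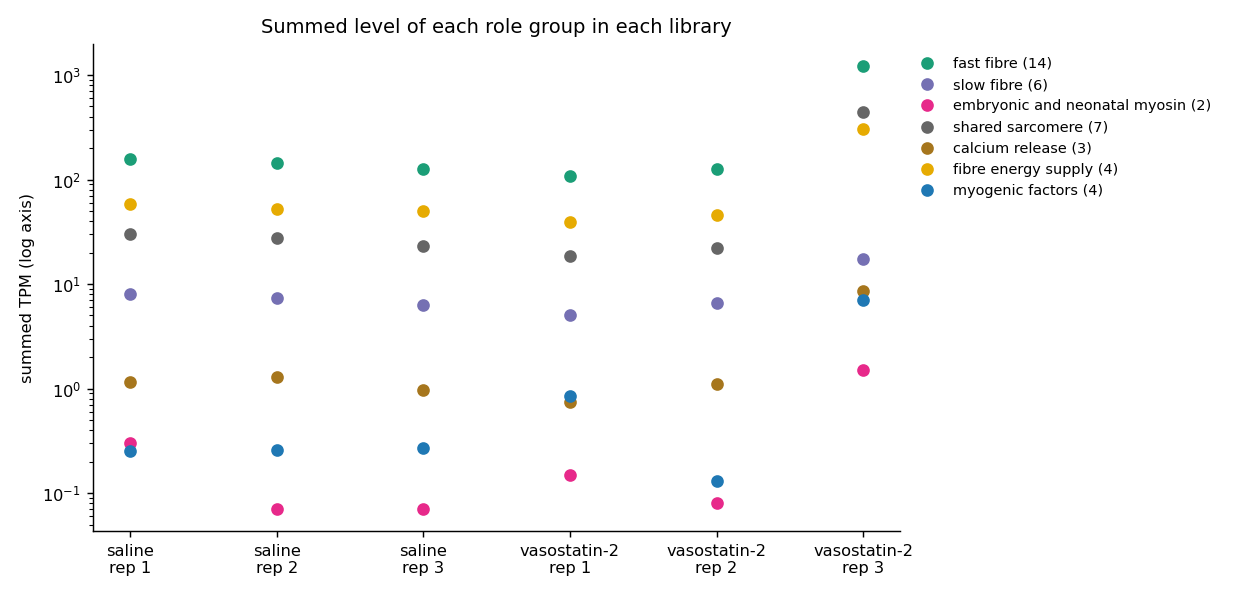
Summed TPM of each role group in each library, on a log axis, with the number of genes in brackets. Fast fibre genes were at 108 to 156 TPM in 5 libraries and 1215 in vasostatin-2 replicate 3, while slow fibre genes went from 5.02 to 8.03 there up to 17.3.

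The mix of isoforms also differed in that library. Myh4 made up 87.2%, 88.5% and 87.6% of the summed TPM of the adult myosins Myh1, Myh2, Myh4 and Myh7 with saline, and 88.5%, 81.4% and 95.4% with vasostatin-2. Myh1 fell within 5.65% to 10.8% in the 5 other libraries and was 2.95% in vasostatin-2 replicate 3, and Myh2 was at 3.03% to 6.85% against 1.39%. Myh7, the slow myosin, held 0% to 1.07% in the 5 and 0.232% in vasostatin-2 replicate 3. Myh4 thus gave most adult myosin RNA in all 6 libraries, and its share was highest in vasostatin-2 replicate 3, where those of Myh1 and Myh2 were lowest.

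Troponin pairs showed the same order. Tnnt1 made up 7.11% to 10.2% of the TPM of Tnnt1 and Tnnt3 in 5 libraries and 1.76% in vasostatin-2 replicate 3. Tnnc1 made up 8.73% to 11.3% of its pair with Tnnc2 in those 5 and 1.88% in vasostatin-2 replicate 3. For Tnni1 of Tnni1 and Tnni2 the values were closer, 3.43% to 5.86% against 2.6%. With 1 library apart and no replicate of it, these shares are a description.

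**Figure D3:**
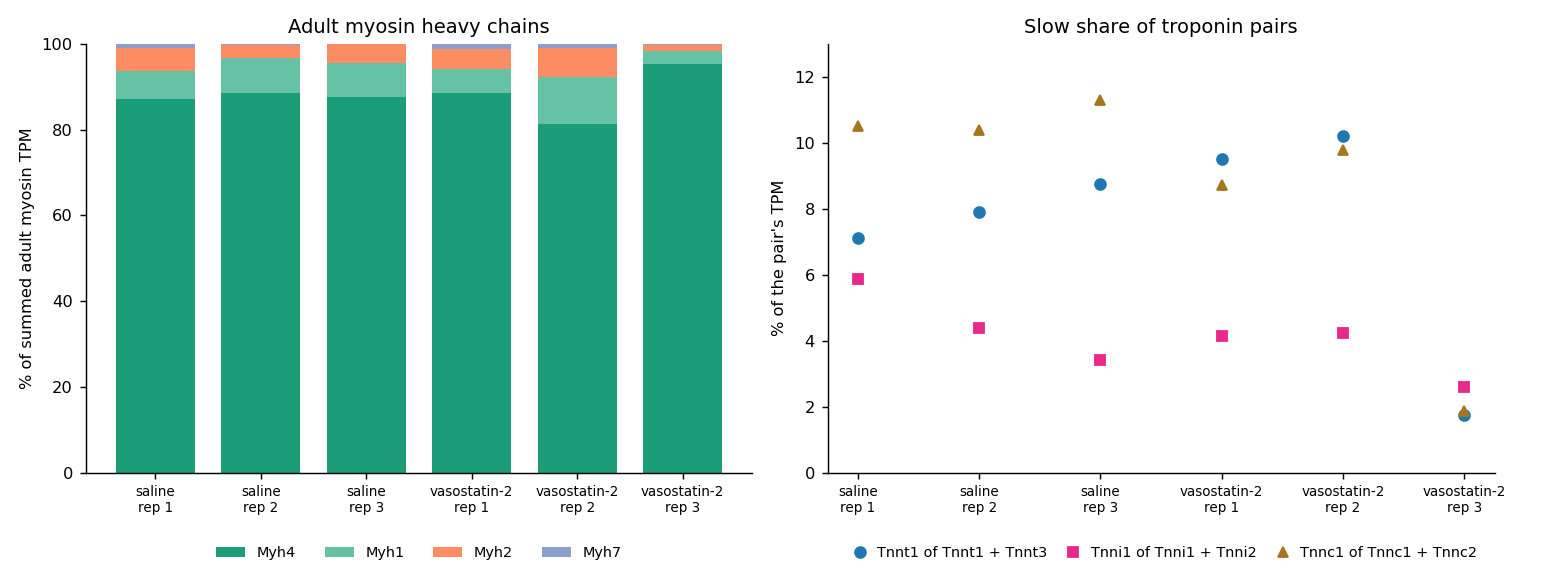
Left, shares of the 4 adult myosin heavy chains in their summed TPM for each library; right, the slow gene's share of each troponin pair. In vasostatin-2 replicate 3 Myh4 took 95.4% and the slow shares of the troponin T and C pairs were 1.76% and 1.88%, below the other 5 libraries.

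Sarcomere genes shared by fast and slow fibres had the largest ratio of summed TPM among the roles that could be tested. Their summed TPM was 29.9, 27.6 and 23.1 with saline and 18.6, 21.9 and 445 with vasostatin-2, 19.3 times the median of the other 5 in vasostatin-2 replicate 3. Acta1 (skeletal alpha-actin; chr8:123891758-123894775) gave most of it, with 24.5, 22.8 and 18.5 TPM against 14.9, 17.9 and 420. It was the most abundant of the 40 genes in that library, below Acta2, the smooth muscle actin. Acta2 had 392 to 1006 TPM in the 5 other libraries and 1055 in vasostatin-2 replicate 3. Taken gene by gene, the median TPM ratio of the shared sarcomere genes was 8. That was below calcium release at 9.71 and fast fibre at 8.55, and above energy supply at 6.26 and slow fibre at 3.71.

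Tcap (telethonin, the titin cap; chr11:98383811-98384953) had 2.93, 2.76 and 3.11 TPM with saline and 2.06, 2.25 and 11 with vasostatin-2. Tmod4 (a cap of the thin filament's pointed end; chr3:95122799-95129209) had 0.72, 0.58 and 0.56 TPM against 0.63, 0.51 and 4.64. Its ratio in vasostatin-2 replicate 3 depended on the unit, 8 times the median of the other 5 by TPM and 3.67 times by CPM (counts scaled for depth and not for length). The giant filament proteins titin and nebulin were low per length but followed: Ttn stood at 13.4 times and Neb at 11.9 times the median by TPM. Actn2 and Myot, both of the Z-disc, stood at 4.58 and 7.96 times.

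Calcium release genes couple the nerve's signal to contraction, and their summed TPM was 1.15, 1.3 and 0.96 with saline and 0.74, 1.1 and 8.58 with vasostatin-2. Ryr1, the release channel of the sarcoplasmic reticulum (chr7:29003340-29125179), had 0.49, 0.68 and 0.59 TPM against 0.5, 0.51 and 3.77. Cacna1s, the voltage sensor that opens it (chr1:136052806-136119822), had 0.33, 0.38 and 0.19 TPM against 0.15, 0.24 and 2.48. Trdn, triadin, which anchors calsequestrin at the channel (chr10:33083483-33476709), had 0.33, 0.24 and 0.18 TPM against 0.09, 0.35 and 2.33. In all 3, vasostatin-2 replicate 3 was over 5 times every other library and the remaining libraries of the groups overlapped.

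Of the energy supply genes, Ckm (which regenerates ATP from phosphocreatine; chr7:19411094-19421583) had 21.2, 17.9 and 15.2 TPM with saline and 10.9, 12.9 and 197 with vasostatin-2. Both lower vasostatin-2 libraries were under every saline library. Pygm (muscle glycogen phosphorylase; chr19:6384408-6398464) had 5.62, 4.79 and 6.9 TPM against 3.87, 5.84 and 36.1. Pgam2, a glycolytic mutase, stood at 6.09 times the median of the other 5 in vasostatin-2 replicate 3.

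Eno3 (the muscle enolase of glycolysis; chr11:70653125-70662513) differed from the other 3. It had 27.1, 24.9 and 23.3 TPM with saline and 21.5, 22.8 and 48.8 with vasostatin-2, only 2.09 times the median in vasostatin-2 replicate 3, and 1.4 times by CPM. In the 5 lower libraries, its TPM was close to that of Tnnt3, 21.5 to 27.1 against 20.7 to 32.4.

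The embryonic and neonatal myosins were sparse. Myh3 had 10.9, 2.82 and 1.02 estimated counts with saline and 8.76, 0 and 65.5 with vasostatin-2, and the value in vasostatin-2 replicate 3, as a whole number, has an exact Poisson 95% interval of 51 to 84. Myh8 had 6.22, 1.18 and 2.66 counts against 0, 4.78 and 22.7, with an interval of 14.6 to 34.5. Relative to all 6 myosins here, Myh3 made up 1.18% of TPM in vasostatin-2 replicate 3, within the 0% to 2.24% of the other libraries. Myh8 made up 0.395%, again within the 0% to 0.97% elsewhere. Their share of myosin RNA was thus not outside the other libraries, though their level was. Those ranges rest on at most 10.9 counts of Myh3 and 6.22 of Myh8 in a library. They are too wide to decide whether the shares differed.

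All 4 myogenic factors with a row had more counts in vasostatin-2 replicate 3 than in the other 5 libraries together. Myog, which drives differentiation into fibres (chr1:134287131-134292550), had 1, 0 and 2 counts with saline and 9, 1 and 45 with vasostatin-2, with a Poisson interval of 32.8 to 60.2 for the 45. Myf6, a factor of mature fibres (chr10:107492848-107494723), had 0, 1 and 0 counts against 1, 0 and 30, with an interval of 20.2 to 42.8. Myod1, which commits cells to the lineage (chr7:46376474-46379092), had 3, 3 and 2 counts against 2, 1 and 18, with an interval of 10.7 to 28.4. Pax7, the satellite cell factor (chr4:139737059-139833530), had 0, 1 and 1 counts against 0, 0 and 7, with an interval of 2.81 to 14.4. Outside vasostatin-2 replicate 3 the highest of these counts was the 9 of Myog in vasostatin-2 replicate 1, the library where most fibre genes were lowest.

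These intervals cover counting error only. A count of 0 allows up to 3 counts, or 0.149 to 0.155 CPM in these libraries, so low levels of these factors were not detectable at this depth. None of the 4 passed the filter on low counts.

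Counts of genes of satellite cells and myoblast fusion were split. The most abundant of the 21 listed, Mef2c, is used by many cell types. Mef2c had 45.6, 41.7 and 50.8 CPM with saline and 53.7, 53.9 and 49.7 with vasostatin-2. It was not highest in vasostatin-2 replicate 3. Picked after their values were seen, Mymk (myomaker, needed for fusion) had 3, 1 and 0 counts against 1, 2 and 22. Chrng, the fetal acetylcholine receptor subunit, had 1, 1 and 0 against 1, 1 and 16, and Mymx (myomixer) had 0 in 5 libraries and 5 in vasostatin-2 replicate 3. Of the 21 genes, 14 were highest in that library by CPM and 10 exceeded every other library 2-fold there. In the comparison of treatments described next, 9 of the 21 could be tested, 6 were higher and 3 lower, and none passed the adjusted threshold.

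**Figure D4:**
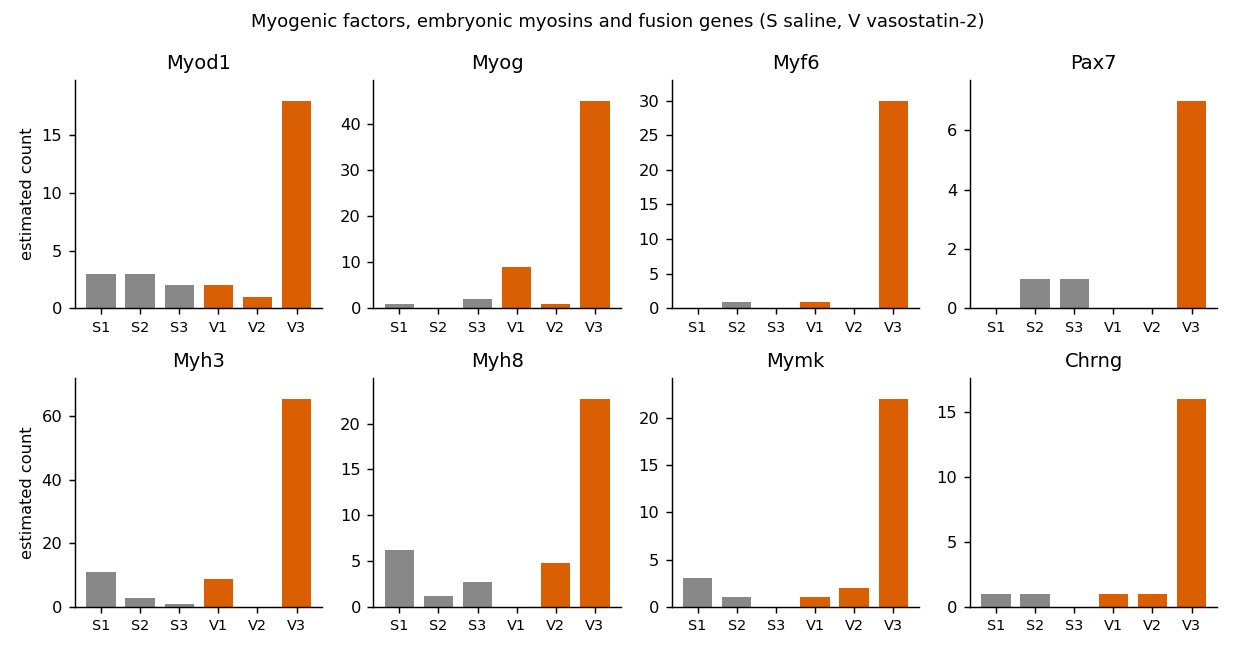
Estimated counts of 4 myogenic factors, Myh3, Myh8, Mymk and Chrng in saline (S, grey) and vasostatin-2 (V, orange) libraries; each panel has its own axis from 0. Every panel has its tallest bar at V3, and Myog has its next tallest, 9, at V1.

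The question the groups were set up for is whether vasostatin-2 changes gene expression in the injured artery. By the quasi-likelihood test of edgeR, adjusted after Benjamini and Hochberg, 0 of 14557 genes (0%) passed an adjusted p of 0.05, and 1040 (7.14%) had an unadjusted p under 0.05. DESeq2 called 113 of 13973 genes (0.809%). Of the 40 muscle genes, 32 passed the filter on low counts, and the 8 that did not were Myh7, Tnni1, Myh3, Myh8, Myod1, Myog, Myf6 and Pax7. None of the 32 was called by edgeR, nor by DESeq2 where it gave an adjusted p, and by edgeR none had an unadjusted p under 0.05.

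The fitted direction was nearly uniform: 31 of the 32 were higher with vasostatin-2, against 49.8% of all genes tested. Their median log2 fold change was 1.49, and that of all genes tested was -0.00068. With limma-voom and quality weights, which count a library less where it departs from its group, the median was 0.50. By limma on log2(TPM + 1), without such weights, it was 0.52. In both, 31 of the 32 were again higher. By role, 14 of 14 fast fibre, 3 of 4 slow fibre, 7 of 7 shared sarcomere, 3 of 3 calcium release and 4 of 4 energy supply genes were higher, none past the threshold. In 0 of the 32 were the groups free of overlap, against 12.8% of all genes. For each gene at least 1 vasostatin-2 library lay among or under the saline ones.

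Acta1 had a mean of 15.5 ± 2.37 CPM (SD, n = 3) with saline and 107 ± 166 with vasostatin-2, a log2 fold change of 2.79 ± 1.28 (SE) with an edgeR adjusted p of 0.71. For Myh4 the means were 26.5 ± 3.95 and 102 ± 144 CPM, and the log2 fold change was 1.94 ± 1.05 with an edgeR adjusted p of 0.741. The SD with vasostatin-2 exceeded the mean in both, so neither difference was larger than the spread between replicates. Myl1 had the lowest p of the 32, with a log2 fold change of 1.80 ± 0.80 and an edgeR adjusted p of 0.71 (0.0602 unadjusted). Tnnc1 was the exception in direction, at -0.18 ± 0.43 with an edgeR adjusted p of 0.95.

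DESeq2 gave no p-value for 11 of the 32 genes, because its rule for single extreme counts withholds one, and 1 more had no adjusted p. Of the 21 genes with a p, 1 was under 0.05, against 6.64% of all genes by DESeq2. This was Casq1 at 0.0364, with a DESeq2 adjusted p of 0.643. Without that rule, a setting chosen after seeing the data, 4 of 32 were under 0.05, Mylpf, Casq1, Mybpc2 and Acta1, against 6.67% of all genes, and none passed the adjusted threshold. In the authors' deposited table, 6 of the 40 genes had a p under 0.05, against 5.68% of all its genes: Mylpf, Casq1, Mybpc2, Acta1, Myog and Myf6. The lowest q-value among the 40 in the authors' deposited table was 0.32, for Myog at a log2 fold change of 4.21.

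Leaving out vasostatin-2 replicate 3 turned the direction. Then 29 of 32 genes were lower with vasostatin-2, against 51.7% of all genes, and their median log2 fold change was -0.31. By edgeR 3 of them, Myh4, Atp2a1 and Ckm, were lower at an unadjusted p under 0.05, as were 2.49% of all genes. No gene passed the adjusted threshold, and the lowest edgeR adjusted p of the 32 was 0.978. Myh4 was at -0.52 ± 0.15 (SE), Ckm at -0.59 ± 0.19 and Acta1 at -0.42 ± 0.17 on the log2 scale. Myl1 was highest in vasostatin-2 replicate 1 among these 5 libraries and stayed above 0, at 0.25 ± 0.25.

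**Figure D5:**
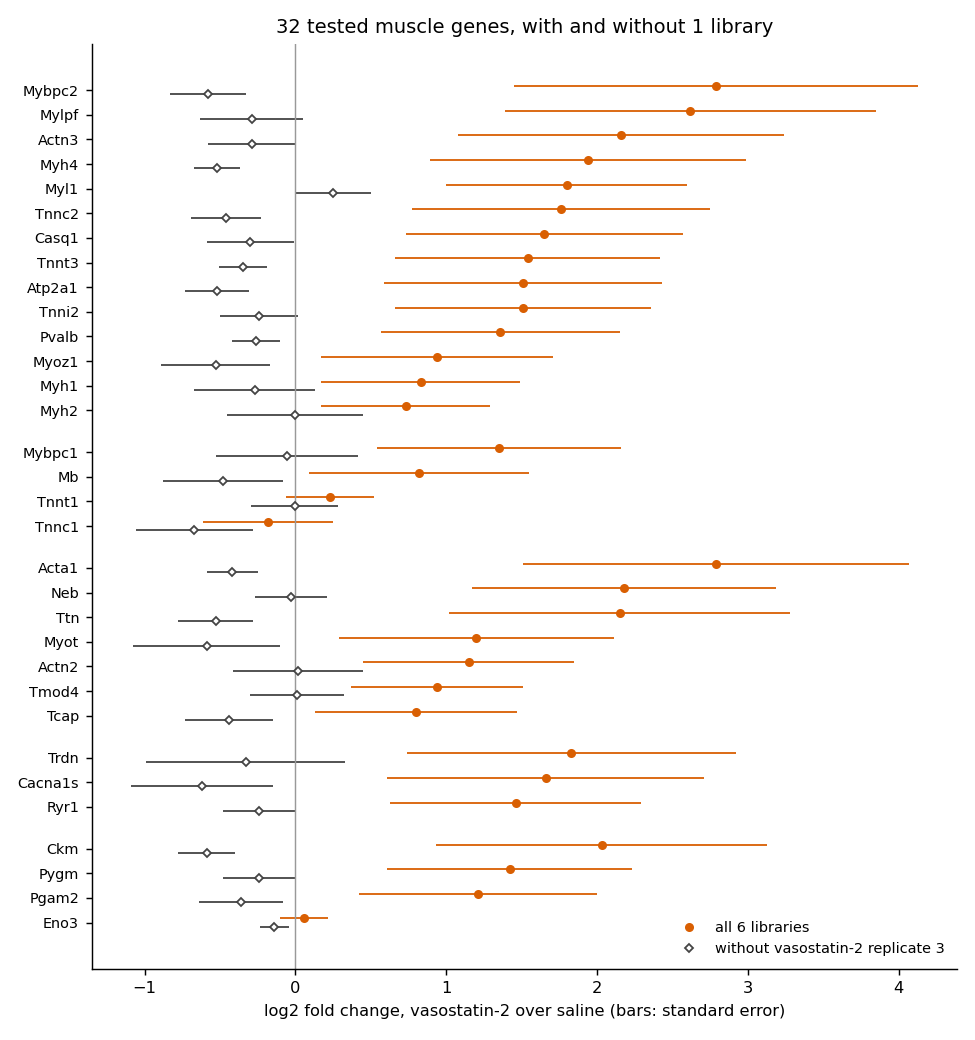
Log2 fold change (vasostatin-2 over saline, edgeR; bars are standard errors) of the 32 tested genes with all 6 libraries (orange circles) and without vasostatin-2 replicate 3 (open diamonds). With all libraries 31 of 32 lie above 0, and without that library 29 of 32 lie below 0.

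Vasostatin-2 replicate 1 lay at the other end. By CPM it was the lowest of the 5 remaining libraries for 26 of the 32 genes, against 12.8% of all genes. In 10 of 32 genes, both remaining vasostatin-2 libraries were under every saline library, against 10.3% of all genes. These were Myh4, Tnnc2, Pvalb, Mybpc2, Tnnc1, Acta1, Tcap, Ttn, Ckm and Pgam2, named after their values were seen. None had both above every saline library. Leaving out vasostatin-2 replicate 1 instead gave 18 of 34 tested genes higher at an unadjusted edgeR p under 0.05, against 3.47% of all genes. Leaving out vasostatin-2 replicate 2 gave 10 of 34, against 1.66%. Both fits kept vasostatin-2 replicate 3. Leaving out saline replicate 1, 2 or 3 gave 0. No muscle gene passed the adjusted threshold in any of these fits.

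Beyond the 40, a list of 48 other adult fibre genes had 43 genes highest in vasostatin-2 replicate 3 by CPM and 29 that exceeded every other library 2-fold. In the test of treatments 30 of its 32 tested genes were higher and none was called, with a median log2 fold change of 0.72, and of -0.052 without vasostatin-2 replicate 3. Its 2 most abundant genes are also used outside skeletal muscle. Pgm1, of glycogen use, had 72.4, 79.1 and 77.7 CPM against 80.6, 66.4 and 77.6, and Des, the muscle intermediate filament, had 42.3, 46 and 52.8 against 31.7, 40.2 and 119.

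The 6 tested genes outside the 40 with the largest ratios of CPM in vasostatin-2 replicate 3 to the highest other library belonged to that list. Among them were Ampd1 (muscle AMP deaminase) at 11.2 times, Xirp2 at 9.41, Klhl41 at 8.83, Jsrp1 at 5.41 and Mybph at 5.04. Of the 20 genes with the largest such ratio among 13763 ranked, 16 were among the 40 and 4 were other adult fibre genes. Of the first 50, 26 and 11 were, leaving 13 in neither list. Hjv, at 4.11 times, was the first gene in neither. The lists are not complete, so genes in neither may still be muscle genes. The likeness is a ratio over 6 libraries and says nothing of shared control.

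Markers of other tissues were read in the same libraries. The 11 contractile smooth muscle genes, which define the labelled cell type, were present throughout, with a summed 1728, 1099 and 2160 CPM with saline and 1111, 2602 and 2630 with vasostatin-2. Of them, 5 were highest in vasostatin-2 replicate 3 and none exceeded every other library 2-fold. Heart genes were sparse, at a summed 5.72 to 8.06 CPM in 5 libraries and 10.5 in vasostatin-2 replicate 3. Of these 8, 4 were highest in vasostatin-2 replicate 3. Only Nppa and Tnnt2 exceeded every other library 2-fold there, at 2.39 and 2.28 times the next. The most abundant, Myl4, had 4.08 CPM there against 2.01 to 3.08 elsewhere. Tnni3, the next, had 2.3 against 1.4 to 3.93. Myh6 had 0 counts in 4 libraries, vasostatin-2 replicate 3 among them, and Myl7 had at most 2. The 12 Schwann cell genes summed to 964 CPM in saline replicate 3 and 210 to 317 elsewhere. Red cell genes ranged from 326 CPM in vasostatin-2 replicate 3 to 12396 in saline replicate 2, adipocyte genes from 3874 to 8485 and keratinocyte genes from 22.2 to 41.8, with none of the 3 lists highest in vasostatin-2 replicate 3. The part of any of these in the muscle values was not tested. In bulk tissue, more muscle cells and more RNA per muscle cell cannot be told apart.

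Some rows carry limits of sequence. Myh1, Myh2, Myh3, Myh4 and Myh8 lie together on chromosome 11, and 9.73%, 9.17%, 1.15%, 3.85% and 6.61% of the 100-base windows of their longest GENCODE transcripts occur in another myosin. Myh7 shared 11.2% of its windows, all with the heart gene Myh6. Reads from such stretches may have been split between genes. Acta1, the troponins, Actn2, Actn3, Myl1, Mylpf and Eno3 shared none. The table gave 6 of the 30 genes with a RefSeq match on the opposite strand, 20% against 13.7% of all matched genes: Casq1, Myh7, Mybpc1, Mb, Ttn and Ryr1, each with a non-coding entry of RNAcentral in its gene model. The sources used here do not say whether counting used strand.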

How the data were processed

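RNA of injured femoral arteries was oligo(dT)-enriched and sequenced on a BGISEQ instrument, per the labels' protocols. HISAT2 2.1.0, DESeq2 1.26.0 and GRCm38.p6 are named in the submitters' processing notes; the sources used here name no counting tool. The authors deposited estimated counts (65.6% whole), TPM and FPKM for each library, and a log2 fold change, p-value and q-value of their own for each gene. The members and lists were chosen with earlier results of these data known.

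Estimated counts were rounded, filtered with filterByExpr (14557 genes kept) and scaled by TMM (factors 0.985 to 1.01). The main test was edgeR 4.0.16's quasi-likelihood fit (R 4.3.3) with treatment as its only term and Benjamini-Hochberg adjustment over all genes tested. The biological coefficient of variation was 16.1%. Standard errors given for edgeR were derived from its test, as the absolute log2 fold change over the square root of the F statistic. TPM was summed within libraries without a test. Alternatives were other scalings, no filter or a mean of 1 CPM, DESeq2 1.42.0, limma-voom and limma 3.58.1 on log2(TPM + 1), FPKM, a replicate block and leaving out each library. Chosen after seeing the data were DESeq2 without its rule for extreme counts and without vasostatin-2 replicate 3. The fits were tested on counts simulated with the same relative spread for every gene and no library apart. There edgeR called 91 of 99 genes changed 2-fold, with 6 false calls, and DESeq2 90 of 100, with 18. Genes whose spread comes from 1 library were not simulated.

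Named library by library were the 3 genes of each role with the highest mean TPM, the embryonic and neonatal myosins and the myogenic factors. Myh4 was added. The 2 most abundant genes of other lists and the 6 non-members with the largest CPM ratio (mean of at least 1 CPM) were also named, except for some that are not reported here. P-values weigh the difference between groups against the spread between these samples. Depth of 19333730 to 20105995 counts limits the sparse genes. Promoter windows are from RefSeq (GRCm38.p6), transcripts from GENCODE (GRCm38).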

Additional observations from a re-analysis of the deposited data

How the results depend on the processing

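Across the other scalings, filters and tests fitted to all 6 libraries, the number of muscle genes called remained 0. Their median log2 fold change stayed above 0, from 0.50 with limma-voom and quality weights to 1.51. It was 0.52 with limma on log2(TPM + 1). DESeq2 called 113 genes of the whole table, with or without its rule for extreme counts, and 66 without vasostatin-2 replicate 3, none of them muscle genes. Same-numbered libraries correlated at -0.12, 0.025 and 0.027 in their deviations from the group means, within the -0.22 to 0.22 of the other pairs. With so few libraries per group, this cannot decide whether the replicate numbers pair the samples. With the number as a block, 0 genes were called and the median of the muscle genes was 0.72. By edgeR, leaving out 1 library at a time gave 0 to 2 called genes (2 without saline replicate 2). It gave 3 to 34 muscle genes higher of the 32 or 34 tested, and a median of -0.31 to 1.93. The negative median and the 3 arose without vasostatin-2 replicate 3 (-0.31 by edgeR, -0.32 by DESeq2). The named genes then ranged as follows on the log2 scale: Tnnt3 -0.35 to 1.99, Myl1 0.25 to 2.24, Mylpf -0.29 to 3.15, Tnnt1 -0.0047 to 0.40, Mb -0.48 to 1.21, Tnnc1 -0.67 to 0.11, Acta1 -0.42 to 3.32, Tcap -0.44 to 1.18, Tmod4 0.01 to 1.25, Ryr1 -0.24 to 1.90, Cacna1s -0.62 to 2.17, Trdn -0.33 to 2.35, Ckm -0.59 to 2.54, Eno3 -0.14 to 0.16, Pygm -0.24 to 1.88, Myh4 -0.52 to 2.44. With DESeq2 and without vasostatin-2 replicate 3, Tnnt1 was at -0.0053, Mb at -0.49 and Cacna1s at -0.63. Without vasostatin-2 replicate 1, Tnnc1 was at 0.11, and without saline replicate 3, Eno3 was at -0.0085. Without the Myh genes and Acta1, vasostatin-2 replicate 3 had 8.34 times the summed median of the other 5 libraries. By FPKM the ratio was 9.49 for fast fibre genes and 24.3 for myogenic factors, whose counts outside that library were few.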
